A study of Mus musculus with 12 samples.

Results

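The genes described here are 34 genes of cholesterol and fatty acid synthesis and their regulators, chosen by name as pathway members. This and the other gene lists were drawn up with earlier results of these data known. Counts below therefore describe the lists and are no independent test of them. All 34 were found among the 20529 genes counted, and all 34 had enough counts to be tested, as had 20486 genes in all. The 3 that lie on chromosome 8 (Mbtps1, Mvd and Msmo1) are given apart, because most genes of that chromosome were higher in the cells labelled Trim71-/-, so counts and medians below refer to the other 31 unless stated. The cells were mouse embryonic stem cells (129S6/SvEvTac), kept on gelatin with serum and LIF. All groups shared the reporter GFP_5xT71BS and the stable construct FLAG-Cas9::T2A::Blasticidin. The 4 groups of 3 libraries were Cas9 control, Cas9 Trim71-/-, Tnrc6a control and Tnrc6a Trim71-/-, the first word being the overexpression label. Tnrc6a encodes a GW182 protein, the adaptor between Argonaute and the enzymes that repress and degrade mRNAs bound by microRNAs. Trim71 encodes an RNA-binding TRIM-NHL protein of early development, and the title of the series concerns silencing pathways that meet on GW182 proteins. The replicates were wells, and nothing in the labels says that a genotype was represented by more than 1 clone, so p-values measure only the spread between wells. In 9 libraries the label for the RNA source disagrees with the title, so the grouping rests on the title and the overexpression tag.

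Cells make cholesterol from acetyl-CoA through the mevalonate arm, which ends in farnesyl diphosphate, and the sterol arm, which joins farnesyl units into squalene, closes the ring and trims it to cholesterol. Fatty acids are built from the same acetyl-CoA by carboxylation, chain synthesis, elongation and desaturation. Both routes are driven by the SREBP transcription factors, which SCAP escorts from the endoplasmic reticulum to the Golgi for cleavage when sterols are low and which INSIG proteins hold back when sterols are high. Srebf2 encodes the factor known mainly for cholesterol genes and Srebf1 the factors known mainly for fatty acid genes.

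Levels per kilobase rank the genes in Cas9 control cells and depend on the deposited gene length, which was longest for Acaca at 17074 bases. Whether that length is the length of the transcripts made in these cells was not tested. On the deposited RPKM scale (counts scaled by gene length and by library size), Acly, which makes cytosolic acetyl-CoA from citrate, stood first at 65.9 ± 2.39 (SD, n = 3). The fatty acid elongase Elovl6 followed at 47.7 ± 1.02, Hmgcs1, which condenses the precursor of mevalonate, at 42.4 ± 1.37, and the fatty acid synthase Fasn at 40.7 ± 0.93. The stearoyl-CoA desaturase Scd2 was at 36.3 ± 1.55 RPKM and its neighbour on the chromosome, Scd1, at 10.6 ± 0.41 RPKM. The lowest levels were those of the acetyl-CoA carboxylase Acaca at 2.88 ± 0.15, the lysosomal cholesterol transporter Npc1 at 2.26 ± 0.06 and the sterol reductase Tm7sf2 at 2.08 ± 0.33 RPKM. On this scale fatty acid genes thus stood at both ends of the range, and the cholesterol enzymes lay mostly between 6 and 20 RPKM.

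**Figure D1:**
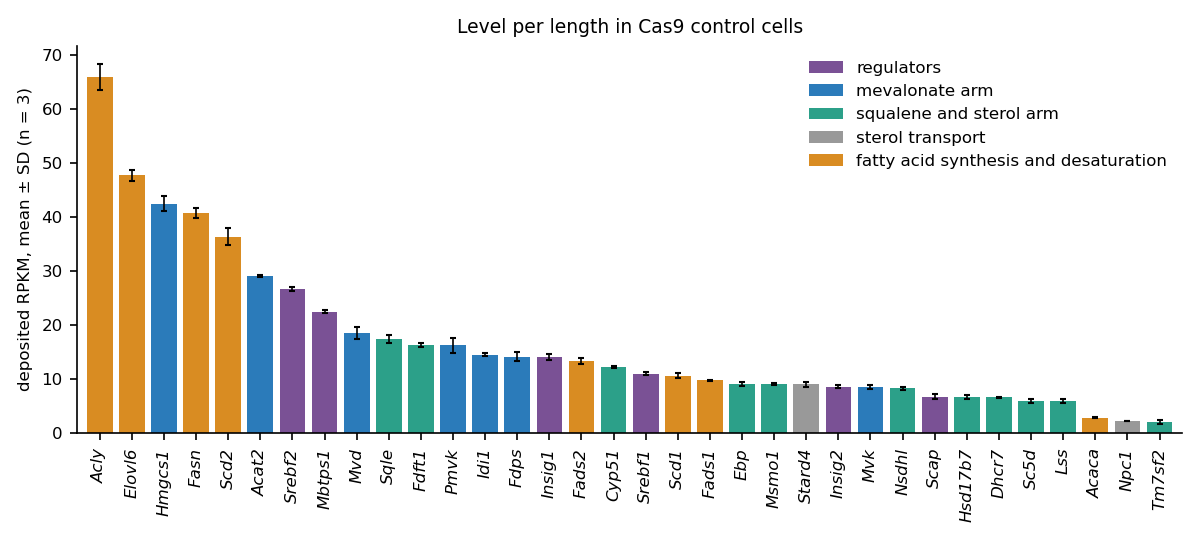
Deposited RPKM (y axis) of the 34 genes in the Cas9 control group, sorted by level and coloured by role, as mean ± SD of 3 libraries. Acly stands highest at 65.9 RPKM and Tm7sf2 lowest at 2.08 RPKM.

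Promoters are shown for 4 cholesterol genes that fell in both comparisons of Tnrc6a with Cas9 described further on, from the RefSeq windows of 250 bases before to 50 after a start site (build GRCm38.p6). Windows were found for 26 of the 34 genes. Capitals mark the sterol response element TCACNCCAC, the letters that SREBP is known to bind, and the NF-Y box, spelled CCAAT, or on the other strand ATTGG; NF-Y is a factor known to act beside SREBP.
Hmgcs1 promoter, chr13:119690101-119690400, plus strand: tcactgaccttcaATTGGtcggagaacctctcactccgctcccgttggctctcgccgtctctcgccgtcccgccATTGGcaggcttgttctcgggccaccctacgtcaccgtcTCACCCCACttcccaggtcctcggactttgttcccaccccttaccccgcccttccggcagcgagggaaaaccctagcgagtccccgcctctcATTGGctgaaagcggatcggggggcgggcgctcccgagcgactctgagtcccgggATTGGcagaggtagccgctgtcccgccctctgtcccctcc
Idi1 promoter, chr13:8885356-8885655, plus strand: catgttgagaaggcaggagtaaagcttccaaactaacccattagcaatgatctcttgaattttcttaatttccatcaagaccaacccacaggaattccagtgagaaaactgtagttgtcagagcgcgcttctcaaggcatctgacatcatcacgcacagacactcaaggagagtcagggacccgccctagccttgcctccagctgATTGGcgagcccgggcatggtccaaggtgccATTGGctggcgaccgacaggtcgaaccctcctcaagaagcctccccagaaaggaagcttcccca
Cyp51 promoter, chr5:4104648-4104947, minus strand: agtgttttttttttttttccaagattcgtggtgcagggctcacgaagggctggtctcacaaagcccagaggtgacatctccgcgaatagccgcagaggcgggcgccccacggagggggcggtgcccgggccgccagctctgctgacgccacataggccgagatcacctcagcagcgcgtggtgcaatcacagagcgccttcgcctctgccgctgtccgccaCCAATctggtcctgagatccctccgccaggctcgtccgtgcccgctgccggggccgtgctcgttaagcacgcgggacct
Nsdhl promoter, chrX:72918271-72918570, plus strand: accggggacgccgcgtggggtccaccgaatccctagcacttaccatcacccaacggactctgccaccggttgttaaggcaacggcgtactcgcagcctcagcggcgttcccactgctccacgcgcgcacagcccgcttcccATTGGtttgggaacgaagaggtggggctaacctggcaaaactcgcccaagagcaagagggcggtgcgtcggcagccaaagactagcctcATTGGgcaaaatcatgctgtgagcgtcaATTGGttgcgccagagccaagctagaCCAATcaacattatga
Searched on both strands, an NF-Y box was in a window of 20 of the 26 genes (76.9%), against 43.3% of 12341 genes of the table with a window. The sterol response element in this strict spelling was in 1 of the 26, that of Hmgcs1, where it begins 137 bases before the start site (3.85%, against 1.45% of genes). The E-box CACGTG, which SREBP can also bind, was in 5 of the 26 (19.2%, against 11.2%): Dhcr7, Hsd17b7, Insig1, Sc5d and Scap. The Hmgcs1 and Nsdhl windows printed hold 4 NF-Y boxes each, that of Idi1 holds 2 and that of Cyp51 holds 1. These are matches of letters and say nothing about occupancy.

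Library totals ran from 20758151 to 31552915 counts. Levels below are in CPM, the count divided by library size and given per 1000000 counts, scaled between libraries by trimmed mean of M values (TMM). Tnrc6a RNA was at 131 to 152 CPM in the 6 Cas9 libraries and at 3197 to 3704 CPM in the 6 Tnrc6a libraries. Trim71 RNA was at 290.1 to 317 CPM in the Cas9 control, 264 to 291 in the Cas9 Trim71-/-, 254 to 277 in the Tnrc6a control and 233 to 251 in the Tnrc6a Trim71-/- libraries. The labels used here do not say which part of Trim71 is altered, so this RNA level is no check of the genotype. The summed level of 8 stem cell markers (Pou5f1, Sox2 and others) was 5159 to 5236 CPM in Cas9 control, 5671 to 5740 in Cas9 Trim71-/-, 3107 to 3142 in Tnrc6a control and 4094 to 4169 in Tnrc6a Trim71-/- libraries. In the same order of groups, 6 markers of 2-cell-like cells summed to 13.3 to 15.7, 0.738 to 1.71, 330.3 to 339.8 and 123 to 132 CPM. The sum of 10 endoderm markers was 114 to 126, 22.5 to 24.4, 255 to 279.6 and 33.0 to 41.9 CPM, and that of 5 of 6 trophoblast markers 28.2 to 29.8, 30.0 to 34.5, 212 to 248 and 118 to 121 CPM. Of 7 fibroblast markers, 3 were in the table, and they summed to 7.44 to 11.2, 10.8 to 11.9, 13.3 to 15.0 and 16.3 to 17.4 CPM. No marker in the table was at 0 in all libraries. All 8 stem cell markers had lower means with Tnrc6a than with Cas9 in control cells, and 6 of 8 had higher means in Cas9 Trim71-/- than in Cas9 control cells. Sall4 was lower in Cas9 Trim71-/- cells (278 CPM, against 379 CPM in Cas9 control), as was Utf1 (302 CPM, against 368 CPM). In Trim71-/- cells Nanog was at means of 762 CPM with Cas9 and 794 CPM with Tnrc6a, while the summed level was lower with Tnrc6a. The 2-cell-like and trophoblast sums were higher with Tnrc6a, and the endoderm sum was lower in Trim71-/- cells and higher with Tnrc6a. Their part in the results was not tested. In bulk RNA, fewer cells of a type and less RNA per cell cannot be told apart.

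With Tnrc6a, most enzymes of both routes were at lower RNA levels than with Cas9, both in control and in Trim71-/- cells. In control cells 22 of the 31 genes fell, 5 rose and 4 did not pass the test (edgeR's quasi-likelihood test, Benjamini-Hochberg adjusted p under 0.05 over all genes tested). Among all genes 33.1% were called lower and 30.4% higher in that comparison. In Trim71-/- cells 24 fell, 6 rose and 1, Fads1, did not pass, where 30.9% of all genes were called lower and 32.0% higher. The median log2 fold change of the 31 genes was -0.33 in control and -0.30 in Trim71-/- cells, beside -0.02 and 0.02 over all genes tested. The 2 comparisons share no library, and 22 of the 31 genes were called lower in both (26.6% of all genes) and 5 higher in both (25.5%). Lower calls were more frequent among well-expressed genes: of 11834 genes outside chromosome 8 that averaged 5 CPM or more, as all 31 did, 45.1% were called lower in control and 42.5% in Trim71-/- cells. The changes were modest in size, and the largest was 1.79-fold, that of Idi1 in control cells. Summed over the 31 genes, the level was 2799, 2788 and 2855 CPM in the Cas9 control libraries and 2207, 2209 and 2287 CPM in the Tnrc6a control libraries. It was 2666, 2656 and 2670 CPM in the Cas9 Trim71-/- and 2125, 2098 and 2172 CPM in the Tnrc6a Trim71-/- libraries, so the groups with and without Tnrc6a did not overlap.

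**Figure D2:**
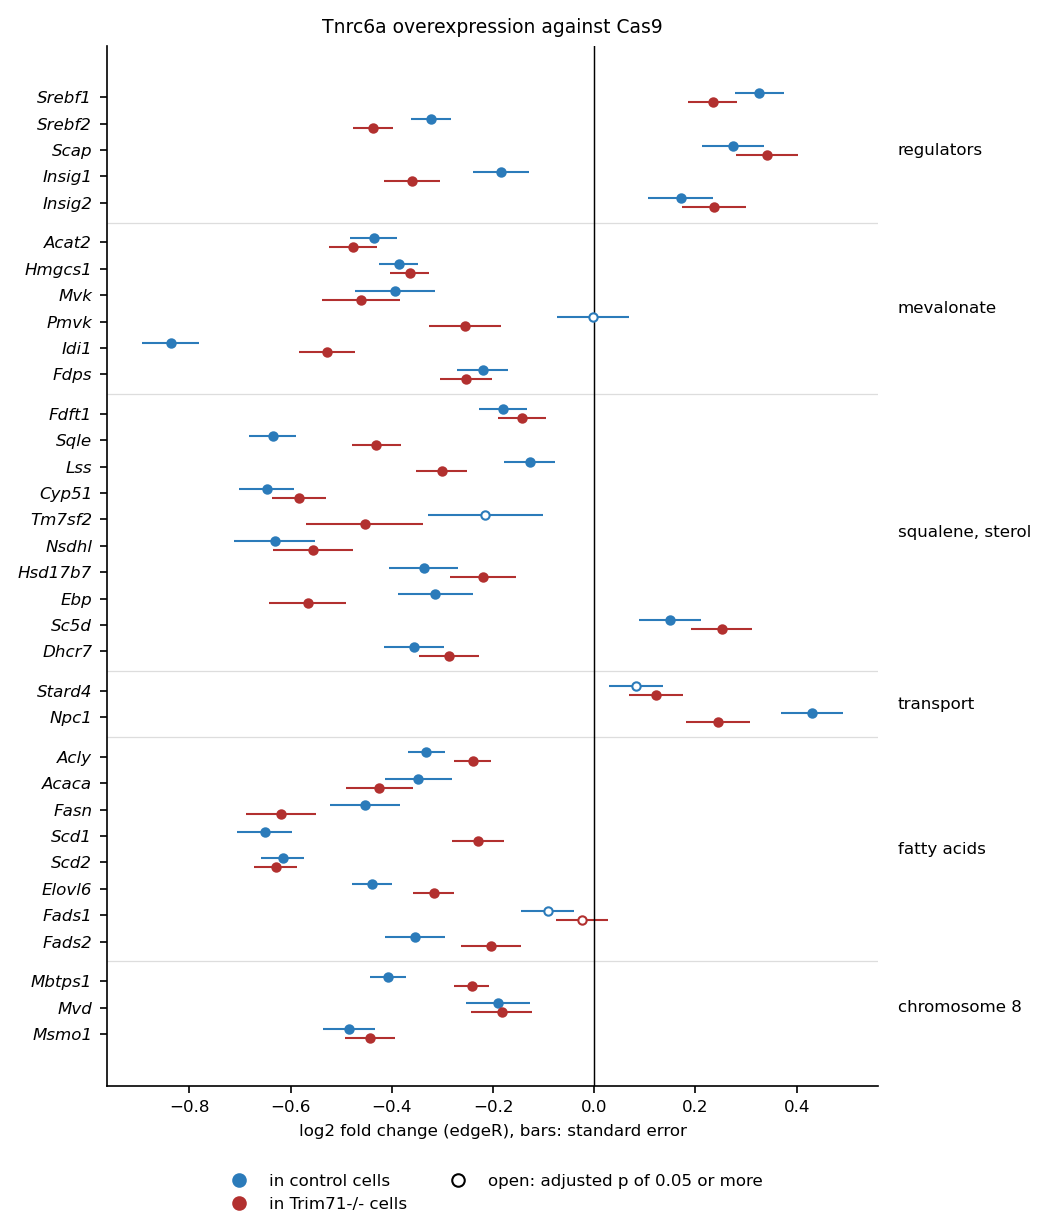
Log2 fold change of Tnrc6a against Cas9 (x axis) for each gene by role, in control cells (blue) and in Trim71-/- cells (red), with standard errors as bars and open points for genes that did not pass the test. Most enzymes lie left of 0 in both genotypes, down to -0.84 for Idi1, while Srebf1, Scap, Insig2, Sc5d and Npc1 lie right of 0 in both.

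The regulators did not move as 1 group. Srebf2 was at 192, 194 and 188 CPM in Cas9 control, 147.6, 154 and 157 in Tnrc6a control, 179, 185 and 182 in Cas9 Trim71-/- and 139, 130 and 134 CPM in Tnrc6a Trim71-/- libraries. Every Tnrc6a library lay below every Cas9 library. The log2 fold change with Tnrc6a was -0.32 (SE 0.04, edgeR adjusted p = 1.46e-09) in control and -0.44 (SE 0.04, adjusted p = 5.87e-13) in Trim71-/- cells. Srebf1 went the other way, from 63.0, 60.0 and 63.6 CPM to 75.7, 79.9 and 78.5 in control cells and from 63.1, 56.8 and 59.8 CPM to 73.4, 69.6 and 68.6 in Trim71-/- cells. Its log2 rises were 0.33 (SE 0.05, edgeR adjusted p = 1.26e-07) and 0.23 (SE 0.05, adjusted p = 5.39e-05). The gene overlaps exons of Rai1 on the opposite strand, and whether the counting used strand is not given in the sources used here. Exons on the opposite strand also overlap those of Scap (5830462I19Rik), Hmgcs1 (Gm48342), Idi1 (Gm48574), Lss (4930483K19Rik) and Elovl6 (Gm35986). Scap, the escort, rose by 0.27 (SE 0.06, edgeR adjusted p = 0.000173) and 0.34 (SE 0.06, adjusted p = 8.77e-06) on the log2 scale. Of the INSIG anchors, Insig1, itself a known SREBP target, fell by 0.18 (SE 0.05, edgeR adjusted p = 0.00312) and 0.36 (SE 0.06, adjusted p = 3.12e-07) on the log2 scale. Insig2 rose by 0.17 (SE 0.06, adjusted p = 0.0186) and 0.24 (SE 0.06, adjusted p = 0.00115). The control-cell calls of these last 2 genes were narrow: that of Insig1 was lost without Tnrc6a control replicate 1 (adjusted p = 0.0674), and that of Insig2 without Cas9 control replicate 1 (0.0936) or Tnrc6a control replicate 3 (0.0600).

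In the mevalonate arm, 5 of 6 genes fell with Tnrc6a in control cells and 6 of 6 in Trim71-/- cells. Among all genes, 33.1% and 30.9% were called lower in these comparisons. Idi1, which isomerises isopentenyl diphosphate, was at 49.7, 51.6 and 51.2 CPM in Cas9 control and at 26.5, 28.8 and 30.0 CPM in Tnrc6a control libraries. In Trim71-/- cells it was at 49.8, 51.4 and 48.8 CPM with Cas9 and at 36.2, 34.1 and 33.7 CPM with Tnrc6a. The 4 groups fall into 3 levels here, with the Cas9 groups together at the top, and the log2 fold change was -0.84 (SE 0.06, edgeR adjusted p = 7.59e-17) in control and -0.53 (SE 0.06, adjusted p = 4.69e-11) in Trim71-/- cells. Acat2, a cytosolic thiolase that begins the arm, fell by 0.44 and 0.48 (SE 0.05 in both, edgeR adjusted p = 6.89e-11 and 5.61e-12) on the log2 scale. Hmgcs1 fell by 0.39 and 0.36 (SE 0.04 in both), and the kinase Mvk by 0.39 and 0.46 (SE 0.08 in both, adjusted p = 3.1e-05 and 1.68e-06). Fdps, which makes farnesyl diphosphate and shares exon sequence with Gm43738, fell by 0.22 and 0.25 (SE 0.05 in both). These were the smallest falls among the genes of the arm outside chromosome 8 that were called in both genotypes. Pmvk, the next kinase after Mvk, was at 27.8 ± 2.27 CPM and 27.9 ± 0.76 CPM in the control groups (SD, n = 3), a log2 difference of -0.00 (SE 0.07), and fell by 0.25 (SE 0.07) in Trim71-/- cells. Summed over the 6 genes, the arm stood at 419 to 439 CPM in Cas9 control against 327 to 334 CPM in Tnrc6a control libraries, and at 438 to 454 against 338 to 341 CPM in Trim71-/- cells.

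In the squalene and sterol arm, 8 of 10 genes fell with Tnrc6a in control cells and 9 of 10 in Trim71-/- cells, and 1, Sc5d, rose in both. The shares of all genes called lower were 33.1% and 30.9%. Cyp51, the lanosterol demethylase, was at 53.6, 53.1 and 54.6 CPM in Cas9 control against 36.6, 33.7 and 32.8 CPM in Tnrc6a control libraries, and at 57.4, 53.9 and 57.5 against 37.6, 38.6 and 36.5 CPM in Trim71-/- cells. Its log2 fold changes were -0.65 (SE 0.05, edgeR adjusted p = 5.43e-14) and -0.58 (SE 0.05, adjusted p = 1.03e-12), and its exons overlap Akap9 on the opposite strand. Sqle, the squalene epoxidase and a rate-limiting step, was at 102, 94.2 and 94.4 CPM against 61.8, 63.2 and 61.9 CPM in control cells, and at 80.4, 79.3 and 87.2 against 60.4, 63.7 and 58.9 CPM in Trim71-/- cells. All 6 Tnrc6a libraries were close together for Sqle, whereas the Cas9 groups stood apart from each other. The log2 fold changes were -0.64 (SE 0.05, edgeR adjusted p = 1.49e-15) and -0.43 (SE 0.05, adjusted p = 1.84e-10). Nsdhl, a sterol dehydrogenase of the demethylation steps, was at 23.0, 24.7 and 23.4 CPM against 16.0, 14.6 and 15.3 CPM in control cells and at 27.5, 24.98 and 23.0 against 18.4, 15.1 and 18.1 CPM in Trim71-/- cells. It fell by 0.63 (SE 0.08, edgeR adjusted p = 4.85e-09) and 0.56 (SE 0.08, adjusted p = 6e-08) on the log2 scale. Ebp, a sterol isomerase, fell by 0.31 (SE 0.08, adjusted p = 0.000346) and 0.57 (SE 0.08, adjusted p = 1.67e-08), and Dhcr7, the reductase of the last step of one branch, by 0.36 (SE 0.06) and 0.29 (SE 0.06). Fdft1, which makes squalene, fell by 0.18 and 0.14 (SE 0.05 in both), and its exons overlap Ctsb on the opposite strand. The cyclase Lss fell by 0.13 (SE 0.05) and 0.30 (SE 0.05); its control-cell call was lost without Cas9 control replicate 3, any Tnrc6a control library or Tnrc6a Trim71-/- replicate 2 (adjusted p = 0.0624 to 0.233), with RLE (relative log expression) or upper-quartile factors or DESeq2 (0.137, 0.0892 and 0.176), with at least 1 CPM in 6 libraries (0.104), and with the groups compared alone (0.0624). Hsd17b7, a sterol ketone reductase, fell by 0.34 (SE 0.07) and 0.22 (SE 0.07), the second of which was lost without Cas9 Trim71-/- replicate 1 (adjusted p = 0.0853). Tm7sf2, of low level and overlapping Vps51 on the same strand, was at 9.19 ± 1.47 against 7.96 ± 0.53 CPM in control cells (SD, n = 3), which did not pass, and fell by 0.45 (SE 0.12) in Trim71-/- cells. The control-cell difference of Tm7sf2 passed only without Cas9 control replicate 2 (edgeR adjusted p = 0.0338). Sc5d, the sterol desaturase, rose by 0.15 (SE 0.06) and 0.25 (SE 0.06), the first of which was lost without Cas9 control replicate 1 (adjusted p = 0.0863) or 2 (0.154) or Tnrc6a control replicate 2 (0.0524). Summed over the 10 genes, the arm stood at 430.4 to 446 CPM in Cas9 control against 337 to 351 CPM in Tnrc6a control libraries, and at 431 to 447 against 351 to 359 CPM in Trim71-/- cells.

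The sterol transport genes lay apart from the enzymes. Npc1, which exports cholesterol from lysosomes, was at 26.2, 26.0 and 24.8 CPM in Cas9 control and at 35.8, 33.8 and 34.03 CPM in Tnrc6a control libraries, with a log2 rise of 0.43 (SE 0.06, edgeR adjusted p = 6.27e-08). In Trim71-/- cells it was at 23.2, 23.3 and 23.4 CPM against 27.3, 28.4 and 27.0 CPM, a log2 rise of 0.24 (SE 0.06, adjusted p = 0.0009). Stard4, a soluble sterol carrier, was at 50.6 ± 2.83 against 53.6 ± 3.35 CPM in control cells (SD, n = 3) and at 52.0 ± 1.22 against 56.5 ± 1.62 CPM in Trim71-/- cells. The first difference did not pass the test, and the second, a log2 rise of 0.12 (SE 0.05, adjusted p = 0.0423), was lost without replicate 1 or 2 of Cas9 Trim71-/- or of Tnrc6a control, or replicate 2 or 3 of Tnrc6a Trim71-/-, with adjusted p = 0.0683 to 0.15. The first passed with RLE factors (edgeR adjusted p = 0.0411) and with at least 1 CPM in 6 libraries (0.0467). Exons of Npc1 overlap Rmc1 on the opposite strand.

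In fatty acid synthesis and desaturation, 7 of 8 genes fell with Tnrc6a in both genotypes, the exception being Fads1. Lower calls made up 33.1% of all genes in control and 30.9% in Trim71-/- cells. Scd2 was at 192, 195 and 208 CPM in Cas9 control against 128, 128 and 133 CPM in Tnrc6a control libraries, and at 225, 217 and 203 against 144, 131 and 142 CPM in Trim71-/- cells. Its log2 fold changes were -0.62 (SE 0.04, edgeR adjusted p = 1.81e-16) and -0.63 (SE 0.04, adjusted p = 8.9e-17), the 2 groups without Tnrc6a lying wholly above the 2 with it. Scd1 was at 50.3, 51.6 and 54.3 CPM in Cas9 control and 31.7, 32.5 and 35.2 CPM in Tnrc6a control libraries, a log2 fold change of -0.65 (SE 0.05, edgeR adjusted p = 5.74e-14). In Trim71-/- cells it was at 72.3, 69.0 and 66.7 CPM with Cas9 and at 57.7, 58.3 and 61.6 CPM with Tnrc6a, a log2 fold change of -0.23 (SE 0.05, adjusted p = 0.000136). The Tnrc6a Trim71-/- libraries thus stood above the Cas9 control libraries for Scd1 and below them for Scd2. Fasn was at 434, 451 and 452 CPM against 316, 307 and 353 CPM in control cells and at 349, 346 and 389 against 227, 219 and 260 CPM in Trim71-/- cells. It fell by 0.45 (SE 0.07, edgeR adjusted p = 7.82e-05) and 0.62 (SE 0.07, adjusted p = 5.05e-06) on the log2 scale, with the third library the highest of its group in both Tnrc6a groups. Elovl6 was at 303, 303 and 315 CPM against 219, 222 and 239 CPM in control cells and at 237, 241 and 221 against 180, 192 and 190 CPM in Trim71-/- cells. Its log2 falls were 0.44 (SE 0.04, edgeR adjusted p = 7.96e-13) and 0.32 (SE 0.04, adjusted p = 6.11e-09). Acly fell by 0.33 and 0.24 (SE 0.04 in both), Acaca by 0.35 and 0.42 (SE 0.07 in both), and Fads2, a desaturase of polyunsaturated fatty acids, by 0.35 and 0.20 (SE 0.06 in both). Its partner enzyme Fads1 was at 47.1 ± 0.59 against 44.2 ± 1.60 CPM and at 52.2 ± 2.50 against 51.3 ± 0.73 CPM (SD, n = 3), which did not pass in either genotype. The 8 genes summed to 1458 to 1533 CPM in Cas9 control against 1078 to 1164 CPM in Tnrc6a control libraries, and to 1336 to 1345 against 991 to 1059 CPM in Trim71-/- cells.

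**Figure D3:**
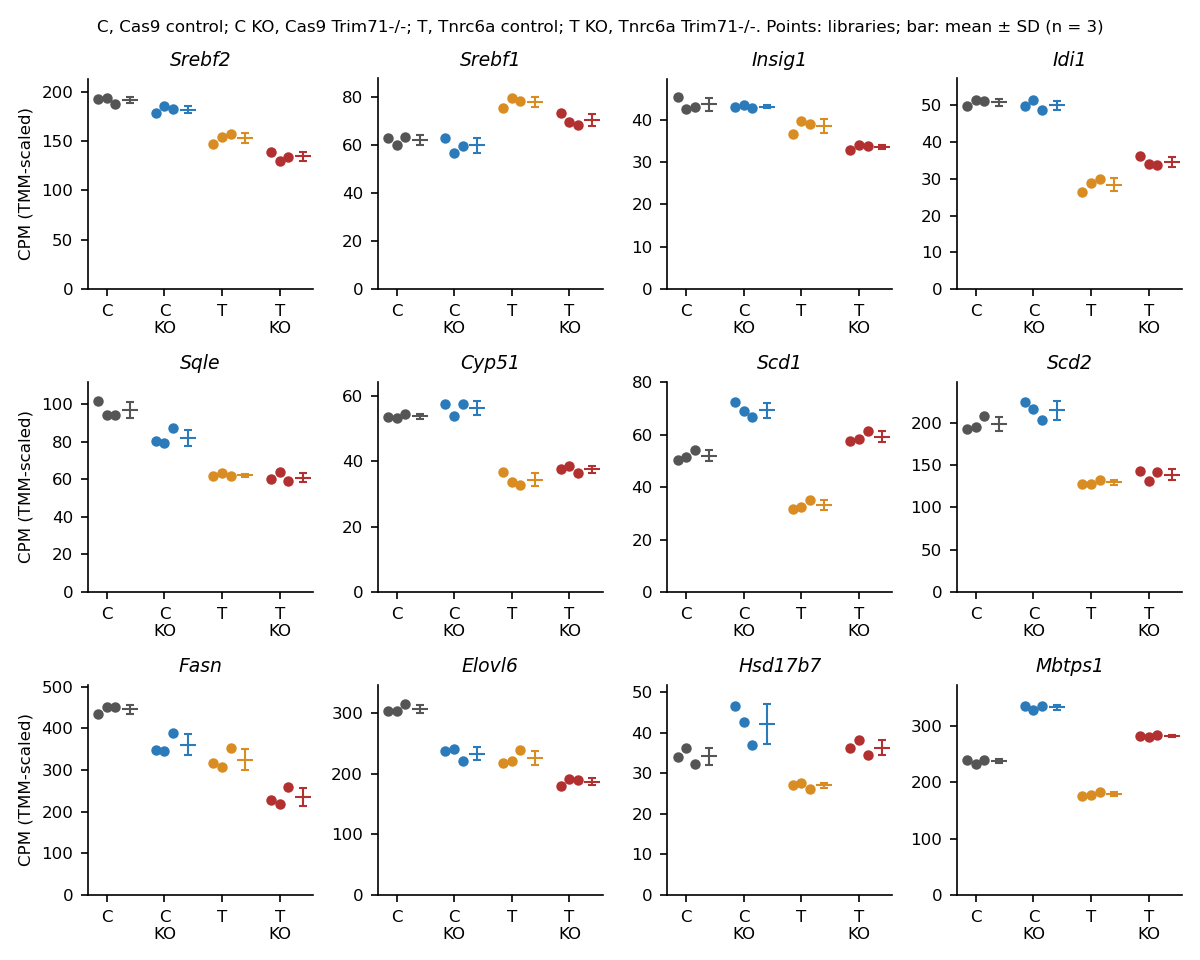
TMM-scaled CPM (y axis, from 0) of 12 genes in the 4 groups (x axis: C, Cas9 control; C KO, Cas9 Trim71-/-; T, Tnrc6a control; T KO, Tnrc6a Trim71-/-), with each library as a point and mean ± SD beside them. Srebf2, Sqle, Cyp51 and Scd2 are lower in both Tnrc6a groups, Srebf1 is higher in both, and Scd1 stands lowest in the Tnrc6a control libraries at 31.7 to 35.2 CPM.

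The 3 chromosome 8 genes also fell with Tnrc6a in both genotypes, where 33.1% and 30.9% of all genes were called lower. Mbtps1, the Golgi protease that makes the first cut in SREBP, was at 239, 233 and 240 CPM in Cas9 control against 176, 178 and 182 CPM in Tnrc6a control libraries, and fell by 0.41 (SE 0.04, edgeR adjusted p = 2.18e-13) in control and 0.24 (SE 0.04, adjusted p = 9.01e-08) in Trim71-/- cells on the log2 scale. Msmo1, the sterol methyl oxidase, fell by 0.48 and 0.44 (SE 0.05 in both, edgeR adjusted p = 5.34e-11 and 1.18e-10). Mvd, the mevalonate arm decarboxylase, fell by 0.19 and 0.18 (SE 0.06 in both, adjusted p = 0.00748 and 0.00794), which was lost without Cas9 control replicate 3 (adjusted p = 0.0726) or Tnrc6a control replicate 2 (0.0602) or with DESeq2 (0.0508) in the first and without Tnrc6a Trim71-/- replicate 1 (0.0732) in the second. Over 664 chromosome 8 genes that averaged 5 CPM or more, the median was -0.08 and -0.03 in these comparisons, beside -0.09 and -0.07 for other genes of that level.

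Other genes of lipid handling, 29 outside chromosome 8 from a list of 33, were counted beside these. With Tnrc6a, 12 of the 29 rose and 12 fell in control cells, with a median log2 fold change of 0.01, and 15 rose and 7 fell in Trim71-/- cells, with a median of 0.14. Over all genes the shares called were 30.4% higher and 33.1% lower in control and 32.0% higher and 30.9% lower in Trim71-/- cells, and the difference between the lists was not tested. The largest rises were those of Abca1, the cholesterol exporter, and Abcg1, another sterol exporter, both known targets of the oxysterol receptors LXR. Abca1 was at 6.57, 8.25 and 6.11 CPM in Cas9 control and 24.5, 20.99 and 24.6 CPM in Tnrc6a control libraries, with log2 rises of 1.76 (SE 0.11, edgeR adjusted p = 1.44e-17) in control and 2.07 (SE 0.12, adjusted p = 1.54e-18) in Trim71-/- cells. Abcg1 rose by 1.35 (SE 0.12, adjusted p = 1.04e-13) and 1.83 (SE 0.13, adjusted p = 3.46e-16). Lpin1, a phosphatidate phosphatase known to restrain nuclear SREBP activity, rose by 1.25 (SE 0.05, adjusted p = 2.98e-23) and 1.81 (SE 0.06, adjusted p = 2.15e-28). Mid1ip1, an activator of acetyl-CoA carboxylase, fell by 1.10 (SE 0.10, adjusted p = 1.84e-12) and 0.99 (SE 0.09, adjusted p = 2.63e-12).

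Between Trim71-/- and control cells the 31 genes divided, and most did not pass the test. With Cas9, 5 genes rose and 4 fell, where 17.1% of all genes were called higher and 19.1% lower. With Tnrc6a, 6 rose and 7 fell, where 20.0% of all genes were called higher and 19.0% lower. Median log2 fold changes were 0.04 and -0.02, beside -0.01 and 0.00 over all genes. The genes called in both comparisons, which share no library, were Scd1, Hsd17b7 and Fads1, higher, and Fasn and Elovl6, lower, while 14 were called in neither. Of all genes, 12% were called higher and 11.7% lower in both. The split with Cas9 was 3 higher to 4 lower with upper-quartile factors or DESeq2. With Tnrc6a it was 9 to 6 with TMM factors taken without chromosome 8 genes and 5 to 9 with RLE factors. Each of these comparisons shares libraries with both comparisons of Tnrc6a with Cas9.

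Scd1 and Hsd17b7 were the main rises in the Trim71-/- cells. Scd1 rose by 0.41 (SE 0.05, edgeR adjusted p = 1.12e-08) with Cas9 and by 0.84 (SE 0.05, adjusted p = 4.15e-17) with Tnrc6a on the log2 scale, from the library values given for it with the fatty acid genes. Hsd17b7 was at 34.1, 36.2 and 32.2 CPM in Cas9 control against 46.7, 42.8 and 37.1 CPM in Cas9 Trim71-/- libraries, and at 27.2, 27.6 and 26.2 against 36.3, 38.2 and 34.4 CPM with Tnrc6a. Neither pair of groups overlapped, and the log2 rises were 0.31 (SE 0.07, edgeR adjusted p = 0.00019) and 0.43 (SE 0.07, adjusted p = 1.17e-06). Fads1 was at 46.5, 47.1 and 47.7 CPM in Cas9 control and 50.0, 55.0 and 51.7 CPM in Cas9 Trim71-/- libraries. It rose by 0.15 (SE 0.05, adjusted p = 0.0215) and, with Tnrc6a, by 0.22 (SE 0.05, adjusted p = 0.000634), the first of which was lost on leaving out replicate 1 of the Cas9 control group (0.0702) or replicate 2 of the Cas9 Trim71-/- group (0.139).

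The falls were led by Elovl6 and Fasn, whose library values are given above. Elovl6 fell by 0.40 (SE 0.04, edgeR adjusted p = 4.84e-11) with Cas9 and by 0.28 (SE 0.04, adjusted p = 3.28e-07) with Tnrc6a on the log2 scale. Fasn fell by 0.30 (SE 0.07, edgeR adjusted p = 0.00401) and 0.47 (SE 0.07, adjusted p = 0.000145). Thus the desaturase Scd1 and the synthase and elongase moved in opposite directions in the same libraries. Sqle fell with Cas9 by 0.24 (SE 0.05, adjusted p = 7.38e-05), and with Tnrc6a its log2 difference was -0.03 (SE 0.05), which did not pass. The interaction term, described further on, was 0.21 for Sqle and did not pass (edgeR adjusted p = 0.0542). It passed only without Cas9 Trim71-/- replicate 3 (0.0111). Acly was at 341, 341 and 363 CPM in Cas9 control and 321, 319 and 311 CPM in Cas9 Trim71-/- libraries, a log2 fall of 0.14 (SE 0.04, adjusted p = 0.00282), and its log2 difference with Tnrc6a was -0.04 (SE 0.04). Its interaction term was 0.09 and did not pass either. Smaller rises with Cas9 stood close to the threshold. Acat2, at 73.7, 73.9 and 74.5 CPM against 77.0, 81.3 and 82.3 CPM, rose by 0.11 (SE 0.05, adjusted p = 0.0477), and Scd2 by 0.11 (SE 0.04, adjusted p = 0.0308) with overlapping groups. The Acat2 call was lost without any Cas9 control library, without replicate 2 or 3 of Cas9 Trim71-/- or without replicate 1 or 3 of Tnrc6a Trim71-/- (adjusted p = 0.0544 to 0.127). It was also lost with RLE (0.0534) or upper-quartile factors (0.071), DESeq2 (0.0647), limma-voom (0.0518) and the groups compared alone (0.0534). The Scd2 call was lost without replicate 1 or 2 of either Cas9 group (adjusted p = 0.0806 to 0.191), with upper-quartile factors (0.0504) and with DESeq2 (0.0522). Mvk, at a log2 difference of 0.19 (SE 0.08, adjusted p = 0.0503), stood on the other side of the threshold. The count of 5 rises was 2 without Cas9 control replicate 1 and 3 without Cas9 Trim71-/- replicate 2.

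Among the regulators, log2 differences between Trim71-/- and control cells with Cas9 were -0.05 for Srebf1, -0.07 for Srebf2, -0.09 for Scap, -0.02 for Insig1 and 0.11 for Insig2 (SE 0.04 to 0.07). By edgeR, DESeq2 and limma-voom 0 of these 5 were called, and 0 had an unadjusted p under 0.05. With Tnrc6a, Scap differed by -0.02 (SE 0.06, adjusted p = 0.808), Srebf2 fell by 0.19 (SE 0.04, adjusted p = 0.00016), Insig1 by 0.20 (SE 0.06, adjusted p = 0.00374) and Srebf1 by 0.15 (SE 0.05, adjusted p = 0.0122), and Insig2 rose by 0.17 (SE 0.06, adjusted p = 0.0215). The Srebf1 call was lost without Tnrc6a Trim71-/- replicate 3 (0.068), and that of Insig2 without Tnrc6a control replicate 1 (0.16) or 2 (0.087) or Tnrc6a Trim71-/- replicate 3 (0.234), with RLE factors (0.0558) or with DESeq2 (0.0813). Npc1 fell by 0.33 (SE 0.06, edgeR adjusted p = 2.16e-05), Idi1 rose by 0.29 (SE 0.06, adjusted p = 8.66e-05), Sc5d rose by 0.24 (SE 0.06, adjusted p = 0.00133) and Lss fell by 0.13 (SE 0.05, adjusted p = 0.0399). The Lss call was lost without Tnrc6a control replicate 1 (0.0557) or 3 (0.0621) or Tnrc6a Trim71-/- replicate 3 (0.154), and with TMM factors without chromosome 8 genes (0.0683). With Tnrc6a, Fads2, Scd2, Cyp51, Ebp, Nsdhl and Fdps did not pass but gained a call in some alternatives (edgeR adjusted p = 0.0276 to 0.0494).

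**Figure D4:**
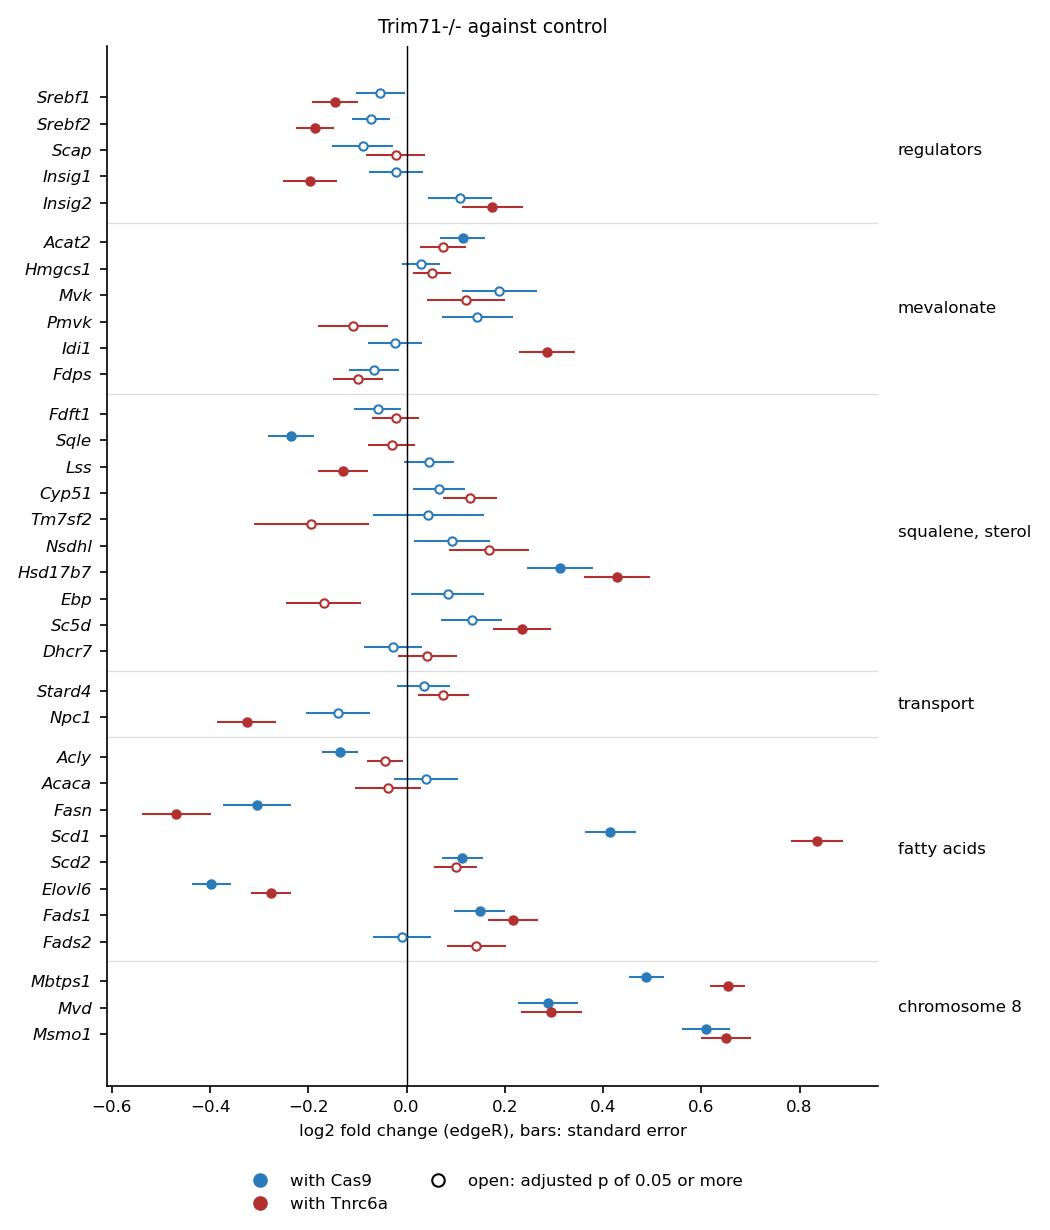
Log2 fold change of Trim71-/- against control cells (x axis) for each gene by role, with Cas9 (blue) and with Tnrc6a (red), with standard errors as bars and open points for genes that did not pass the test. Most points lie near 0; Scd1 reaches 0.84 with Tnrc6a, Fasn lies at -0.30 and -0.47, and the 3 chromosome 8 genes lie between 0.29 and 0.65.

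The 3 chromosome 8 genes were all higher in Trim71-/- cells. Mbtps1 was at 336, 327 and 335 CPM in Cas9 Trim71-/- and 281, 279 and 283 CPM in Tnrc6a Trim71-/- libraries, and rose by 0.49 (SE 0.04, edgeR adjusted p = 2.68e-15) with Cas9 and 0.65 (SE 0.04, adjusted p = 1.82e-19) with Tnrc6a. Msmo1 was at 54.3, 55.8 and 57.2 CPM in Cas9 control and 85.4, 80.0 and 90.1 CPM in Cas9 Trim71-/- libraries, and rose by 0.61 and 0.65 (SE 0.05 in both, adjusted p = 7.67e-14 and 1.95e-14). Mvd was at 32.6, 34.5 and 36.6 against 40.8, 41.3 and 44.5 CPM with Cas9, and rose by 0.29 and 0.30 (SE 0.06 in both, adjusted p = 0.000202 and 0.000124). None of these groups overlapped. The median of the 664 chromosome 8 genes was 0.49 with Cas9 and 0.52 with Tnrc6a, with quartiles of 0.31 and 0.63 and of 0.32 and 0.65, and 82.4% and 84.0% of them were called higher. Mvd lay below the lower quartile in both comparisons and Mbtps1 and Msmo1 above it. A change of these genes by genotype and one of the whole chromosome cannot be told apart in these data.

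Of the 29 other lipid genes, 5 rose and 15 fell in Trim71-/- cells with Cas9, a median log2 fold change of -0.16, and 9 rose and 11 fell with Tnrc6a, a median of -0.02. Among all genes 17.1% were called higher and 19.1% lower with Cas9, and 20.0% higher and 19.0% lower with Tnrc6a. The medians over all genes were -0.01 and 0.00, and the difference between the lists was not tested. Lipa, the lysosomal lipase that frees cholesterol from its esters, rose by 1.02 (SE 0.10, edgeR adjusted p = 3.46e-11) and 0.91 (SE 0.08, adjusted p = 3.02e-12). Abcg1 fell by 0.82 (SE 0.15, adjusted p = 1.34e-05) with Cas9, and Mid1ip1 rose by 0.65 (SE 0.11, adjusted p = 3.05e-06) with Tnrc6a. The 4 genes of the list on chromosome 8 were called higher in both comparisons, with medians of 0.80 and 0.69, beside 0.49 and 0.52 for the 664 chromosome 8 genes. Acsl1, an acyl-CoA synthetase, rose by 0.94 (SE 0.06, adjusted p = 6.58e-18) and 1.02 (SE 0.05, adjusted p = 7.5e-20). Erlin2, a membrane protein of the endoplasmic reticulum, rose by 0.80 (SE 0.05, adjusted p = 1.05e-18) with Tnrc6a. These values lay above the upper quartiles of the chromosome, 0.63 with Cas9 and 0.65 with Tnrc6a.

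Whether the change with Tnrc6a differed between the 2 genotypes was tested by the interaction term, the log2 fold change with Tnrc6a in Trim71-/- cells minus that in control cells. Of the 31 genes, 2 passed, Scd1 and Idi1, both positive, where 4.68% of all genes were called positive and 2.25% negative. For negative terms 0 of 31 passed by edgeR, DESeq2 or limma-voom, and 6 had an unadjusted p under 0.05. Scd1 (chr19:44394455-44407879, minus strand, GRCm38) had a term of 0.42 (SE 0.07, edgeR adjusted p = 0.000134), as its fall with Tnrc6a was smaller in Trim71-/- cells. Idi1 (chr13:8885501-8892451, plus strand) had a term of 0.31 (SE 0.08, adjusted p = 0.0102), which was lost without Tnrc6a control replicate 1 (adjusted p = 0.119) or 2 (0.0527). The median term of the 31 genes was 0.04, beside 0.02 over all genes. Mbtps1, on chromosome 8, had a term of 0.17 (SE 0.05, adjusted p = 0.0333), which was lost on leaving out Cas9 control replicate 1 or 3, Cas9 Trim71-/- replicate 2, Tnrc6a control replicate 1 or 2 or any Tnrc6a Trim71-/- library (adjusted p = 0.0709 to 0.233), or with RLE factors (0.0865). Of the 29 other lipid genes, 4 passed with positive terms. Lpin1 had a term of 0.56 (SE 0.08, edgeR adjusted p = 3.22e-06). Hacd2, of fatty acid elongation, had a term of 0.36 (SE 0.09, adjusted p = 0.00774), lost without Cas9 Trim71-/- replicate 2 (0.0503). Acsl4, an acyl-CoA synthetase, had a term of 0.33 (SE 0.09, adjusted p = 0.0128), lost without Tnrc6a control replicate 1 (0.121) or 2 (0.081) or Tnrc6a Trim71-/- replicate 2 (0.0687). The elongase Elovl5 had a term of 0.20 (SE 0.06, adjusted p = 0.0295). That call was lost with RLE factors (0.0682) or DESeq2 (0.0613), and without replicate 3 of either Cas9 group, replicate 1 or 2 of Tnrc6a control or replicate 2 or 3 of Tnrc6a Trim71-/- (0.0608 to 0.207). Terms of the regulators did not pass: -0.09 (SE 0.07, adjusted p = 0.504) for Srebf1, -0.11 (SE 0.06, 0.245) for Srebf2, 0.07 (SE 0.09, 0.745) for Scap, -0.18 (SE 0.08, 0.189) for Insig1 and 0.07 (SE 0.09, 0.76) for Insig2. The terms of Mvd, 0.01 (SE 0.09, adjusted p = 0.977), and Msmo1, 0.04 (SE 0.07, adjusted p = 0.815), did not pass either.

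Because Tnrc6a acts in microRNA silencing, matches to the seeds (bases 2 to 8, in capitals) of microRNAs known from stem cells and from differentiating cells were looked up in the longest annotated 3' UTR of each gene. The mature sequences are from RefSeq.
mmu-miR-294-3p: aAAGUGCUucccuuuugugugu
mmu-miR-17-5p: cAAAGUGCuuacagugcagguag
mmu-let-7a-5p: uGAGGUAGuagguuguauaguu
A match to the miR-294 seed, shared by the miR-290 and miR-302 families, was found in 4 of the 34 genes (Elovl6, Fads2, Hsd17b7 and Stard4; 11.8%, against 17.4% of 14972 genes). The miR-17 seed matched 3 (Elovl6, Lss and Stard4; 8.82%, against 14.2%), and the let-7 seed matched 4 (Mvd, Scd1, Scd2 and Srebf2; 11.8%, against 11.7%). For 4 genes whose changes are described above, the match is shown in capitals with 10 bases on either side, on the gene's strand (GRCm38).
Scd1 3' UTR, chr19:44396346-44396372, minus strand: cagatcctccCTACCTCcaactcatgt
Scd2 3' UTR, chr19:44306478-44306504, plus strand: tattcctgacCTACCTCcacgggtagg
Elovl6 3' UTR, chr3:129635990-129636016, plus strand: atgcttccaaAGCACTTtagtctcagt
Hsd17b7 3' UTR, chr1:169949985-169950011, minus strand: gagatggctcAGCACTTaagagccccg
The first pair of sites matches let-7 and the second pair the miR-290 and miR-302 families. Genes with a match went both ways between Trim71-/- and control cells with Cas9, Elovl6 lower and Hsd17b7 higher, and both fell with Tnrc6a in control cells. Of the genes that fell with Tnrc6a in both genotypes, Elovl6, Fads2, Hsd17b7, Lss, Scd1, Scd2, Srebf2 and, on chromosome 8, Mvd held a match. The others, such as Idi1, Sqle, Cyp51, Nsdhl and Fasn, held no match to these 3 seeds in that UTR. The share of all genes without a match to any of the 3 seeds was not computed, and no site was tested for function here.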

How the data were processed

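The authors deposited a table that holds both unnormalized counts and RPKM values by gene. The RPKM values in each library were the counts divided by the deposited gene length and by 1 constant of 0.935 to 1.08 of the library's total. Per the submitters' processing notes, bcl2fastq 2.20, STAR 2.7.3a and the builds GRCm38 and mm10 were used; how reads were counted, and whether by strand, is not given in the sources used here, beyond a length column whose header names QuasR. In R 4.3.3, edgeR 4.0.16 was run on the counts of all 12 libraries (filterByExpr, TMM factors, glmQLFit with robust estimation and 1 mean per group, glmQLFTest, two-sided), with Benjamini-Hochberg adjustment over all 20486 tested genes and a threshold of 0.05. The pipeline was tested on simulated data. RPKM served only for levels between genes. The members and all gene lists were chosen with earlier results of these data known. By rule, every member is accounted for, the 8 largest called changes per comparison (5 for the interaction) are named with their error and p, and regulators, chromosome 8 members and up to 4 other lipid genes are always named, of which 1 result is not reported here. Alternatives were RLE and upper-quartile factors, TMM factors without chromosome 8 genes, no filter, at least 1 CPM in 6 libraries, DESeq2 1.42.0, limma-voom (limma 3.58.1), a replicate block, the groups compared alone and each library left out. Coordinates are GENCODE's for GRCm38, promoters and microRNAs RefSeq's. Depth is given by the total counts per library, and the coefficient of variation between wells of a group (median over groups) was 1.49% to 10.7% over the 34 genes.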

Additional observations from a re-analysis of the deposited data

Results flagged for a closer look

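By the interaction test (edgeR, adjusted over all genes), the change with Tnrc6a was called different between Trim71-/- and control cells for 3 genes. These were 2 of the 31 genes and Mbtps1, where 4.68% of all genes were called positive and 2.25% negative. Scd1 had a log2 term of 0.42 (SE 0.07, adjusted p = 0.000134). Idi1 had a term of 0.31 (SE 0.08, adjusted p = 0.0102), lost without Tnrc6a control replicate 1 (0.119) or 2 (0.0527). Mbtps1, on chromosome 8, had a term of 0.17 (SE 0.05, adjusted p = 0.0333), lost with RLE factors (0.0865) and on leaving out any of several single libraries.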

How the results depend on the processing

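The counts of genes that fell with Tnrc6a, 22 of 31 in control and 24 in Trim71-/- cells, ran from 20 to 23 and from 23 to 24 over the alternatives run. The count of 5 rises in Trim71-/- cells with Cas9 was 3 with upper-quartile factors and 3 with DESeq2, and 2 to 6 with each library left out. The count of 5 rises with Tnrc6a in control cells was 3 to 5 with each library left out (3 without Cas9 control replicate 1), that of 2 positive interaction terms 1 to 3 (1 without Tnrc6a control replicate 1 or 2), and that of 0 negative terms 0 to 1 (1 without Cas9 Trim71-/- replicate 1 or Tnrc6a Trim71-/- replicate 3). Over single genes, 3836 of 3952 recomputed values kept their side of the threshold, and 82 lost and 34 gained a call, in 33 of 190 results. No called value changed sign, and the cause was not tested. Values not called could change sign and still count as kept. Tm7sf2, Trim71-/- against control with Cas9, was at 0.04 and ran from -0.04 to 0.18 with each library left out. No scaling moved the median of all genes by over 0.1 on the log2 scale.

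Samples with the same replicate number did not deviate together: the correlation of deviations from group means was -0.23 to 0.14 over 18 same-numbered pairs and -0.21 to 0.22 over 36 others. With the replicate number as a block, higher and lower counts were 4 and 4 (Trim71-/-, Cas9), 6 and 6 (Trim71-/-, Tnrc6a), 5 and 22 (Tnrc6a, control), 6 and 24 (Tnrc6a, Trim71-/-) and 2 and 0 (interaction). The block ended the calls of Acat2 in the first (adjusted p = 0.0609) and of Lss in the second (0.0502).

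The lowest of the 34 genes, Tm7sf2, had 558 to 720 counts per group, and how much of the spread between wells is counting error was not tested. With 3 wells per group and no label that names several clones per genotype, effects of a clone or of the chromosome 8 level and those of the genotype cannot be told apart, and the lower or higher RNA of a whole pathway was not separated from the changes in stem cell and 2-cell-like markers.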
